A study of Mus musculus with 7 samples.

Results

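The genes that make cholesterol, together with the genes that switch them on and off, were followed in the livers of fasted SHIVA mice. A list of 27 genes was taken, of which the array held all 27 among its 36413 gene names, and 26 were detected and could be tested. The list holds enzymes of the mevalonate and sterol arms, the SREBP control proteins and a few genes of sterol transport and esterification. Total liver RNA was hybridized to Agilent arrays in a single colour, each mouse on its own array, for 3 WT and 4 SHIVA females of 8 to 12 weeks. All mice were on the C57BL/6 background and all had been fasted for 24 h, so no fed liver stands beside them. SHIVA mice carry a point mutation in the DNA binding domain of Sox17, a transcription factor, induced with ENU and kept heterozygous, so that a normal allele remains in every cell that carries it. The array reads the amount of RNA and does not see this point mutation. All values given are log2 of the spot intensity after quantile normalization, and differences are SHIVA minus WT on that scale. In whole liver, fewer cells of a type and less RNA per cell cannot be told apart.

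Cholesterol is built from acetyl-CoA. The mevalonate arm makes isoprene units and joins them into farnesyl diphosphate, and the sterol arm turns squalene, made from it, into lanosterol and then cholesterol. Liver is a main site of this synthesis. SREBP2, the product of Srebf2, is held in the endoplasmic reticulum with its escort Scap by the Insig proteins while sterol is plentiful. When sterol runs low it is carried to the Golgi, cut, and enters the nucleus, where it binds sterol regulatory elements beside boxes for the factor NF-Y. Insulin and feeding favour the pathway in liver, and fasting lowers it.

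Across the list, 0 of 26 members passed limma's test at an adjusted p under 0.05 over the 19974 genes tested, of which 0.375% passed. At an unadjusted p under 0.05 there were 2 of 26, Hsd17b7 and Tm7sf2, beside 13.3% of all genes tested. Lower means in SHIVA livers were found for 17 of 26 members, beside 51.2% of all genes tested. The median difference over the 26 members was -0.21, and over all genes tested -0.01. Hsd17b7 had the largest difference of the list, with 2.59 times as much signal in WT as in SHIVA livers. The SHIVA livers lay entirely below the WT livers for 2 members, Hsd17b7 and Tm7sf2, and entirely above them for 1, Ggps1. Among all genes tested these shares were 6.02% and 6.14%. The WT livers themselves stood apart from each other: WT 3 was the highest WT liver for 19 of 26 members, beside 34.8% of all genes tested. It was the highest of the 7 mice for 17 members, for which no share over all genes was taken. Without WT 3 the median difference of the list turned to 0.06, with 12 of 26 members lower. Over all genes tested, WT 3 correlated at 0.982 and 0.984 with WT 1 and WT 2. Its correlations with SHIVA 1 to SHIVA 4 were 0.988, 0.977, 0.989 and 0.989.

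**Figure D1:**
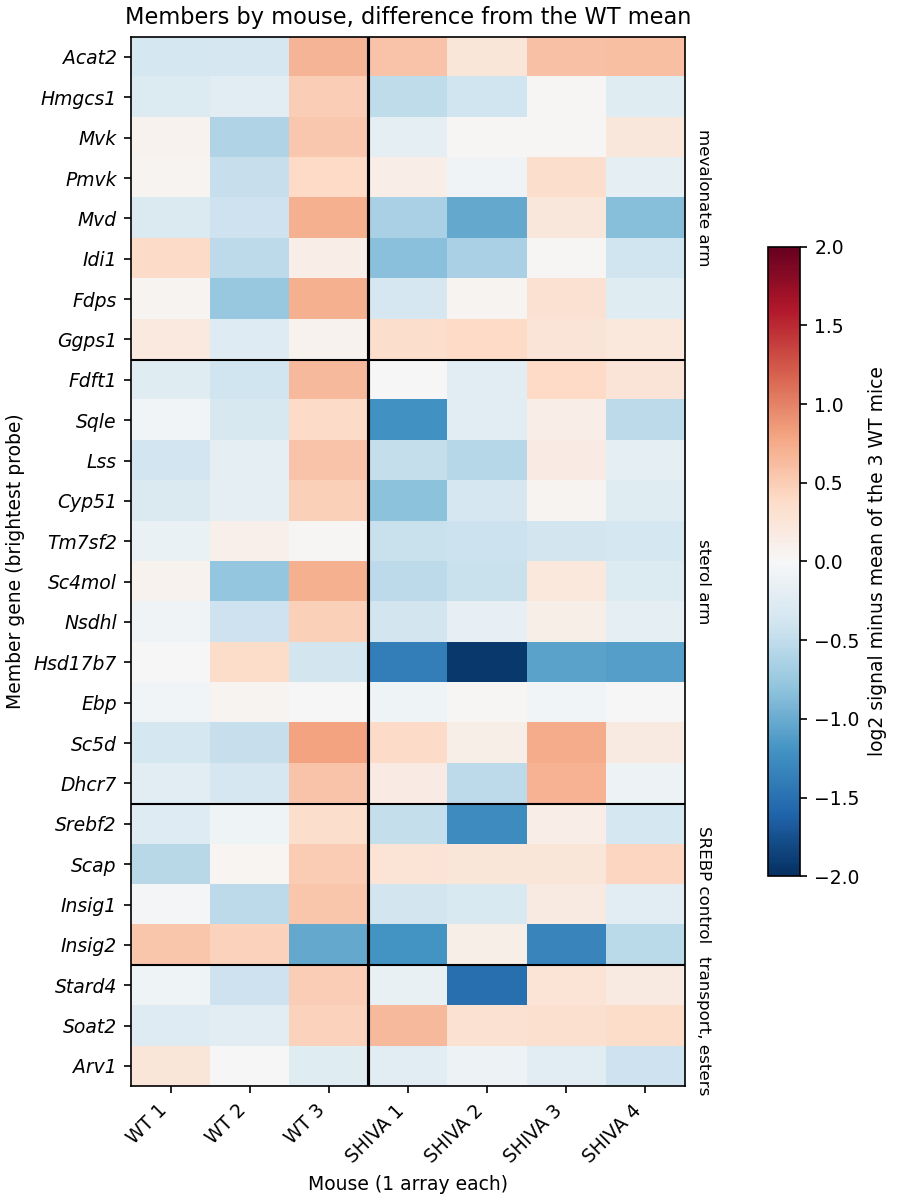
Log2 signal of the 26 tested members in each of the 7 mice, shown as the difference from the mean of the 3 WT mice (colour scale in log2 units, red above and blue below that mean), with genes grouped by role. WT 3 is red over most rows, Hsd17b7 is blue in all 4 SHIVA mice, and Insig2 is blue in WT 3.

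All 7 arrays lay on 1 slide, WT in row 1 and SHIVA in row 2, so slide row and genotype cannot be told apart. The slide column followed the mouse number, with WT 3 and SHIVA 3 both in column 3. Mouse number and slide column therefore cannot be told apart either. Per array, 44.5% to 48.7% of probes exceeded background clearly, and 0 spots were saturated. Markers of hepatocytes such as Alb were well above background on all arrays, and 8 of 8 could be tested, with a median difference of 0.03. Sox17 itself was well above background in 2 of 3 WT and 4 of 4 SHIVA livers, with a log2 difference of 0.69 (standard error 0.25, adjusted p = 0.280 from limma). With so few arrays the precision is limited: the 95% intervals of the members reached a median of 0.59 to either side, and for 16 of 26 members they excluded a change of 2-fold in either direction.

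Promoter sequence is shown for 4 members, because SREBP2 and NF-Y are known to act there: Hmgcs1, the only member with a full match to the sterol regulatory element searched, Mvk, which held the most NF-Y boxes, and Hsd17b7 and Tm7sf2, whose WT and SHIVA livers did not overlap. They come from RefSeq (GRCm38.p6), are written 5′ to 3′ on the strand of the gene, and end at or before the annotated start site. The Hmgcs1 stretch is chr13:119690101-119690350 on the plus strand, that of Mvk chr5:114444019-114444263 on the plus strand, that of Hsd17b7 chr1:169969243-169969455 on the minus strand and that of Tm7sf2 chr19:6067851-6068100 on the minus strand. Capitals mark NF-Y boxes (CCAAT, or ATTGG where it lies on the other strand) and, in Hmgcs1, the sterol regulatory element TCACCCCAC.
Hmgcs1: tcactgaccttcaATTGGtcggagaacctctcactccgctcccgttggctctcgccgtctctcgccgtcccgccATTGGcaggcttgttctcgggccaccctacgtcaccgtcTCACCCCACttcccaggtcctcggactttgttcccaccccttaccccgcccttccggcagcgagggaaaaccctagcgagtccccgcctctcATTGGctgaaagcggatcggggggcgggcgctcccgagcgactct
Mvk: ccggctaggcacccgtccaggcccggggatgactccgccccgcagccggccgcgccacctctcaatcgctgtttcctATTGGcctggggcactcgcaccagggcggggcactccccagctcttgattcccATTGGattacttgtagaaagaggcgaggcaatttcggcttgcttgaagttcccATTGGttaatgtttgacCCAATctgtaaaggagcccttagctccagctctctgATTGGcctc
Hsd17b7: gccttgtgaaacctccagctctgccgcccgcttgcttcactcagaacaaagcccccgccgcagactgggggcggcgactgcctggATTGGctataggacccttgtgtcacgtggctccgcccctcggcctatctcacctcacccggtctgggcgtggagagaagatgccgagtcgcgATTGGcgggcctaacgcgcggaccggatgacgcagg
Tm7sf2: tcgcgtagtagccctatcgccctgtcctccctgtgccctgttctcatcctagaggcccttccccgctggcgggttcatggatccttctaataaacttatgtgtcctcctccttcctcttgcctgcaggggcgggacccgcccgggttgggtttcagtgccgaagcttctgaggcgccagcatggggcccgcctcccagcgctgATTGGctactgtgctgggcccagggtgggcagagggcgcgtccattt

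Windows of 250 bases before to 50 after the start site were found for 22 of the 27 members (28 windows), and Fdps, Fdft1, Sqle, Soat2 and Stard4 are named only. On both strands, CCAAT was found in 19 of the 22 members (86.4%) and in 41.1% of the 27025 genes with a window. At least 2 boxes in a window were found in 11 of the 22 members (50%) and in 13.3% of all genes. The members with no box were Acat2, Arv1 and Scap. The element TCACNCCAC was found in 1 of the 22 members (4.55%), at -137 in Hmgcs1, and in 1.44% of all genes. The Sox motif AACAAT was found in 1 of the 22 members (4.55%), in Pmvk, and in 12.2% of all genes. No pair of these motifs shares bases in the Hmgcs1 window. These are matches of letters and say nothing on whether a factor binds.

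**Figure D2:**
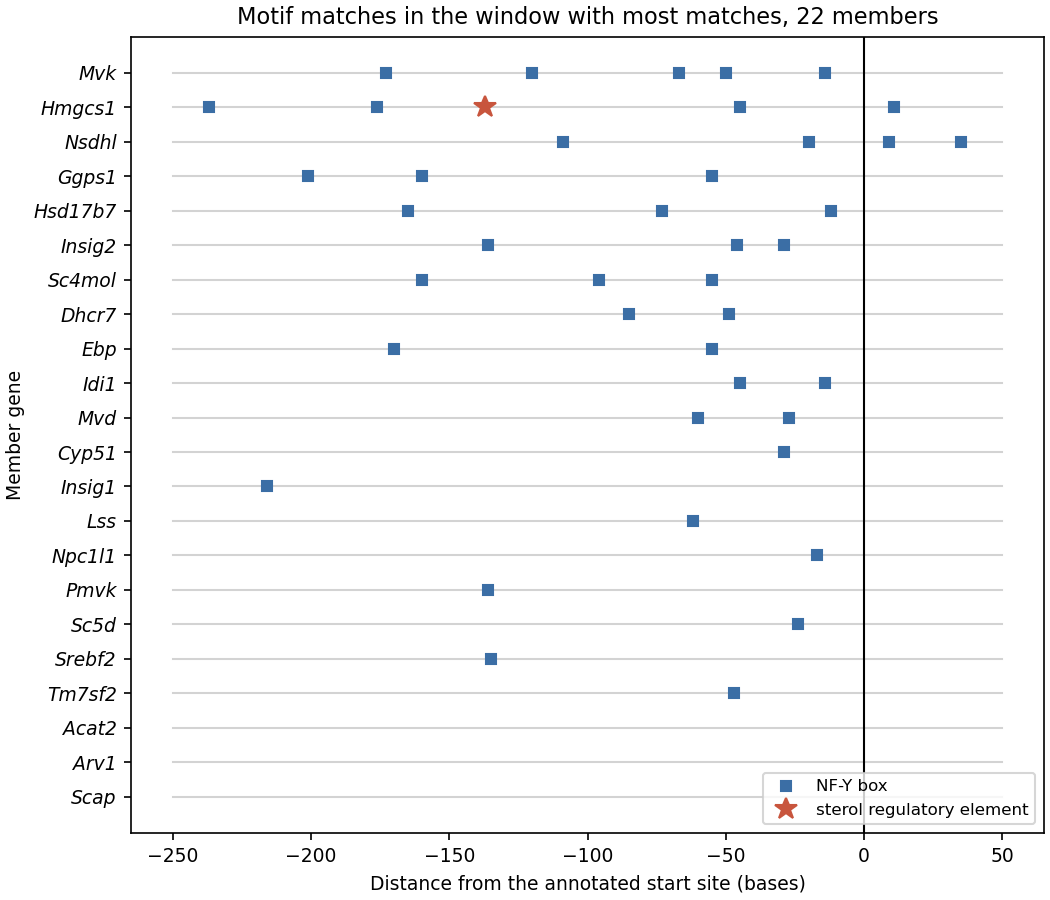
Position of NF-Y boxes (squares) and of the sterol regulatory element (star) in the promoter window of 22 members, in bases from the annotated start site (vertical line). For a gene with several windows the one with most boxes is drawn. A box is held by 19 of 22 members, and Hmgcs1 alone holds a full match to the element searched, TCACNCCAC. Other forms of the element were not searched.

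In the mevalonate arm none of the 8 genes passed the test, and 4 of them had lower and 4 higher means in SHIVA livers, with a median difference of -0.02. Acat2, the cytosolic thiolase that joins acetyl-CoA units, measured 12.22, 12.23 and 13.25 in the WT livers and 13.14, 12.81, 13.16 and 13.17 in the SHIVA livers. WT 3 was the highest mouse and WT 1 and WT 2 were the lowest, so the genotypes overlapped through WT 3 alone. The difference was 0.50 (standard error 0.26, adjusted p = 0.460 from limma), and it came to 0.84 without WT 3 (adjusted p = 0.054) and to 0.33 without WT 1 or without WT 2.

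Hmgcs1, the synthase that makes HMG-CoA in the cytosol, measured 12.06, 12.12 and 12.82 in WT and 11.82, 11.93, 12.36 and 12.09 in SHIVA livers. Its highest values were those of WT 3 and SHIVA 3, and the other 5 mice lay between 11.82 and 12.12. The difference of -0.28 (standard error 0.22, adjusted p = 0.639 from limma) came to -0.04 without WT 3. Mvk, mevalonate kinase, measured 9.97, 9.31 and 10.45 in WT and 9.74, 9.93, 9.93 and 10.13 in SHIVA livers. The SHIVA values all lay within the WT range. Its difference was 0.02 (95% interval -0.56 to 0.60, adjusted p = 0.982 from limma) by the brighter probe and -0.20 by the dimmer one. It was 0.29 without WT 3 and -0.28 without WT 2.

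Mvd, which makes isopentenyl diphosphate, measured 8.03, 7.91 and 9.03 in WT and 7.68, 7.30, 8.54 and 7.47 in SHIVA livers. Here again WT 3 and SHIVA 3 were the top mice, and SHIVA 3 alone kept the genotypes from separating. The difference was -0.57 (standard error 0.36, adjusted p = 0.546 from limma), and it was -0.22 without WT 3. Idi1, the isomerase that follows, measured 10.17, 9.26 and 9.92 in WT and 8.96, 9.13, 9.82 and 9.39 in SHIVA livers. WT 1 was its highest mouse, and WT 2 fell among the SHIVA livers. The difference was -0.46 (standard error 0.27, adjusted p = 0.517 from limma), and it came to -0.27 without WT 1 and -0.73 without WT 2.

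Ggps1 makes geranylgeranyl diphosphate, a branch that leads to lipid anchors on proteins and not to cholesterol. It measured 7.03, 6.57 and 6.90 in WT and 7.19, 7.23, 7.09 and 7.04 in SHIVA livers by its brighter probe. All SHIVA livers were above all WT livers, but the gap between WT 1 and SHIVA 4 was only 0.0093. The difference was 0.30 (standard error 0.16, adjusted p = 0.453 from limma), and 0.17 without WT 2. With the mean signal, normexp, the authors' table or the mean of all probes the genotypes overlapped for this gene. The dimmer probe, at 6.12, 5.85 and 5.29 in WT and 5.75, 5.91, 5.76 and 5.69 in SHIVA livers, overlapped and differed by 0.03.

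In the sterol arm none of the 11 genes passed the test, and 8 were lower and 3 higher in SHIVA livers, with a median difference of -0.26. Hsd17b7 encodes the ketosteroid reductase that acts in the removal of the methyl groups of lanosterol. It measured 10.21, 10.58 and 9.85 in WT and 8.84, 8.29, 9.14 and 9.12 in SHIVA livers. The lowest WT liver, WT 3, was 0.71 above the highest SHIVA liver, SHIVA 3, so the gap was wider than either standard deviation (0.37 for WT, n = 3, and 0.40 for SHIVA, n = 4). The difference was -1.37 (standard error 0.26, 95% interval -1.95 to -0.79), with an adjusted p of 0.079 from limma. It passed the threshold without WT 3, at -1.55 with an adjusted p of 0.038, and in none of the other fits that left out a mouse, whose adjusted p reached 0.277.

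The other probe of Hsd17b7 measured 8.93, 8.96 and 8.19 in WT and 7.35, 7.46, 7.54 and 7.66 in SHIVA livers. These groups did not overlap either, and the difference was -1.19. WT 3 was the lowest WT liver by both probes. The probe used lies at chr1:171883182-171883241 of mm9, the genome build of the array files, which puts it 167 Mb from the Sox17 probe on the same chromosome.

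Tm7sf2 encodes a reductase for the double bond left after lanosterol loses its first methyl group. It measured 13.20, 13.43 and 13.35 in WT and 12.88, 12.89, 12.96 and 12.98 in SHIVA livers. The 2 groups were apart by 0.22, and the SHIVA livers agreed among themselves to within an SD of 0.05 (n = 4). The difference was -0.40 (standard error 0.13, 95% interval -0.70 to -0.10, adjusted p = 0.250 from limma). The dimmer probe gave 11.90, 12.22 and 12.19 in WT and 11.71, 11.53, 11.78 and 11.64 in SHIVA livers, again without overlap, with a difference of -0.44. Leaving out WT 3 moved the value of the brighter probe to -0.39, since WT 3 lay between the other WT mice.

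**Figure D3:**
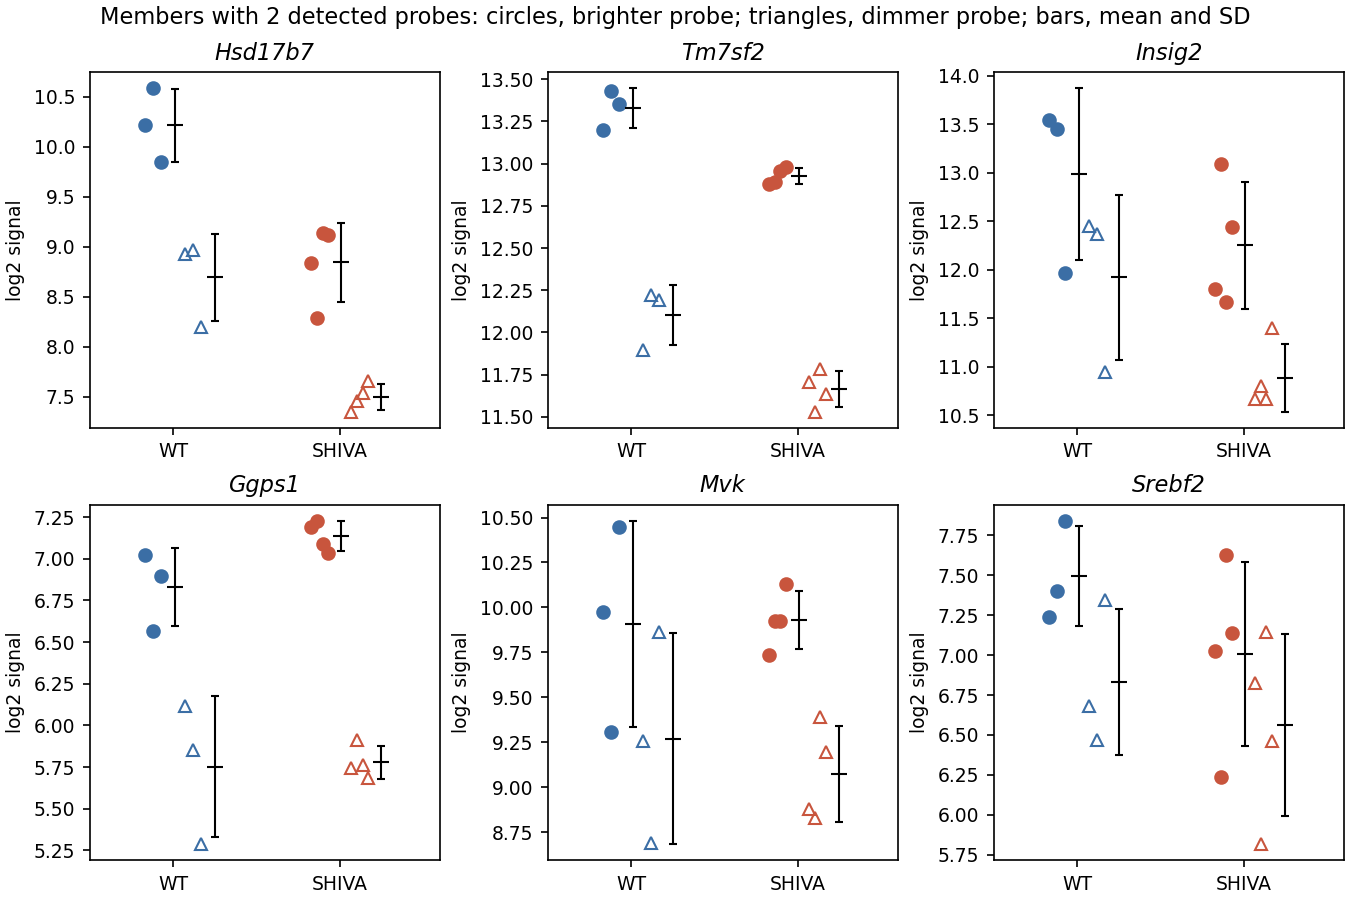
Log2 signal per mouse (points) for 6 members with a pair of detected probes, circles for the brighter probe used in the test and triangles for the dimmer one, with mean and SD as bars (WT n = 3, SHIVA n = 4). Both probes of Hsd17b7 and of Tm7sf2 keep the genotypes apart, while for Ggps1 only the brighter one does.

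Sqle, squalene epoxidase, measured 9.63, 9.38 and 10.07 in WT and 8.48, 9.47, 9.83 and 9.18 in SHIVA livers. SHIVA 1 was the lowest mouse, and SHIVA 2 and SHIVA 3 lay within the WT range. The difference was -0.45 (standard error 0.31, adjusted p = 0.589 from limma), and it came to -0.20 without SHIVA 1 and -0.26 without WT 3. Sc5d, which places a double bond late in the arm, measured 11.98, 11.88 and 13.15 in WT and 12.72, 12.45, 13.08 and 12.52 in SHIVA livers. The 4 SHIVA livers lay above WT 1 and WT 2 and below WT 3. Its difference of 0.35 (standard error 0.31, adjusted p = 0.689 from limma) came to 0.76 without WT 3, 0.13 without WT 2, 0.18 without WT 1 and 0.23 without SHIVA 3.

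The remaining genes of the arm, among them Lss, which closes the ring of lanosterol, Cyp51, Sc4mol and Nsdhl, which strip its methyl groups, and Dhcr7, which acts at the end of the arm, overlapped between the genotypes. Ebp, the sterol isomerase, had the narrowest interval of the list, with a difference of -0.03 (95% interval -0.31 to 0.26), and its 7 values lay between 14.81 and 14.94. Over all roles, 12 members were not picked by size, by separation or in the fixed choice of Srebf2, Insig1, Hmgcs1, Sqle and Mvk. These 12, Ebp, Stard4 and Arv1 included, ran from -0.34 (Cyp51) to 0.29 (Scap), 8 lower and 4 higher. Their adjusted p-values were 0.581 or more from limma.

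Among the control genes 3 of 4 were lower and none passed the test. Srebf2, the gene of SREBP2, measured 7.24, 7.40 and 7.84 in WT and 7.02, 6.24, 7.63 and 7.14 in SHIVA livers. SHIVA 3 lay above WT 1 and WT 2, and SHIVA 2 was the lowest mouse. The difference was -0.49 (standard error 0.31, adjusted p = 0.552 from limma) by the brighter probe and -0.27 by the dimmer one. By the brighter probe it came to -0.23 without SHIVA 2 and -0.31 without WT 3. Insig1, which retains SREBP2 in the endoplasmic reticulum and is itself an SREBP target, measured 9.25, 8.78 and 9.85 in WT and 8.93, 8.98, 9.47 and 9.06 in SHIVA livers. All SHIVA livers lay within the WT range, with a difference of -0.18 (standard error 0.26, adjusted p = 0.811 from limma) that turned to 0.10 without WT 3 and came to -0.44 without WT 2 and -0.30 without SHIVA 3.

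Insig2, the second retention protein, whose liver transcript is known to increase on fasting and to fall with insulin, measured 13.54, 13.45 and 11.96 in WT and 11.80, 13.10, 11.67 and 12.44 in SHIVA livers. WT 3 was lower than WT 1 and WT 2 by 1.53, and lay among the SHIVA livers. The difference was -0.73 (standard error 0.46, adjusted p = 0.546 from limma), and it came to -1.25 without WT 3 (adjusted p = 0.149) and -0.45 without WT 1. Its other probe measured 12.46, 12.37 and 10.94 in WT and 10.66, 10.80, 10.67 and 11.40 in SHIVA livers, a difference of -1.04. The probes disagreed on SHIVA 2, which was the highest SHIVA liver by the brighter probe and lay among the other SHIVA livers by the dimmer one.

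Of the genes of transport and esterification, Soat2, which esterifies cholesterol in hepatocytes, measured 9.70, 9.76 and 10.42 in WT and 10.61, 10.26, 10.28 and 10.33 in SHIVA livers. All SHIVA livers were above WT 1 and WT 2, and WT 3 lay among them. The difference was 0.41 (standard error 0.21, adjusted p = 0.446 from limma), and 0.64 without WT 3 (adjusted p = 0.102). Npc1l1, the sterol importer of the gut, was not well above background on any of the 7 arrays, so no level or fold is given. Stard4, a sterol carrier, and Arv1 overlapped between the genotypes, with differences of -0.30 and -0.24.

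**Figure D4:**
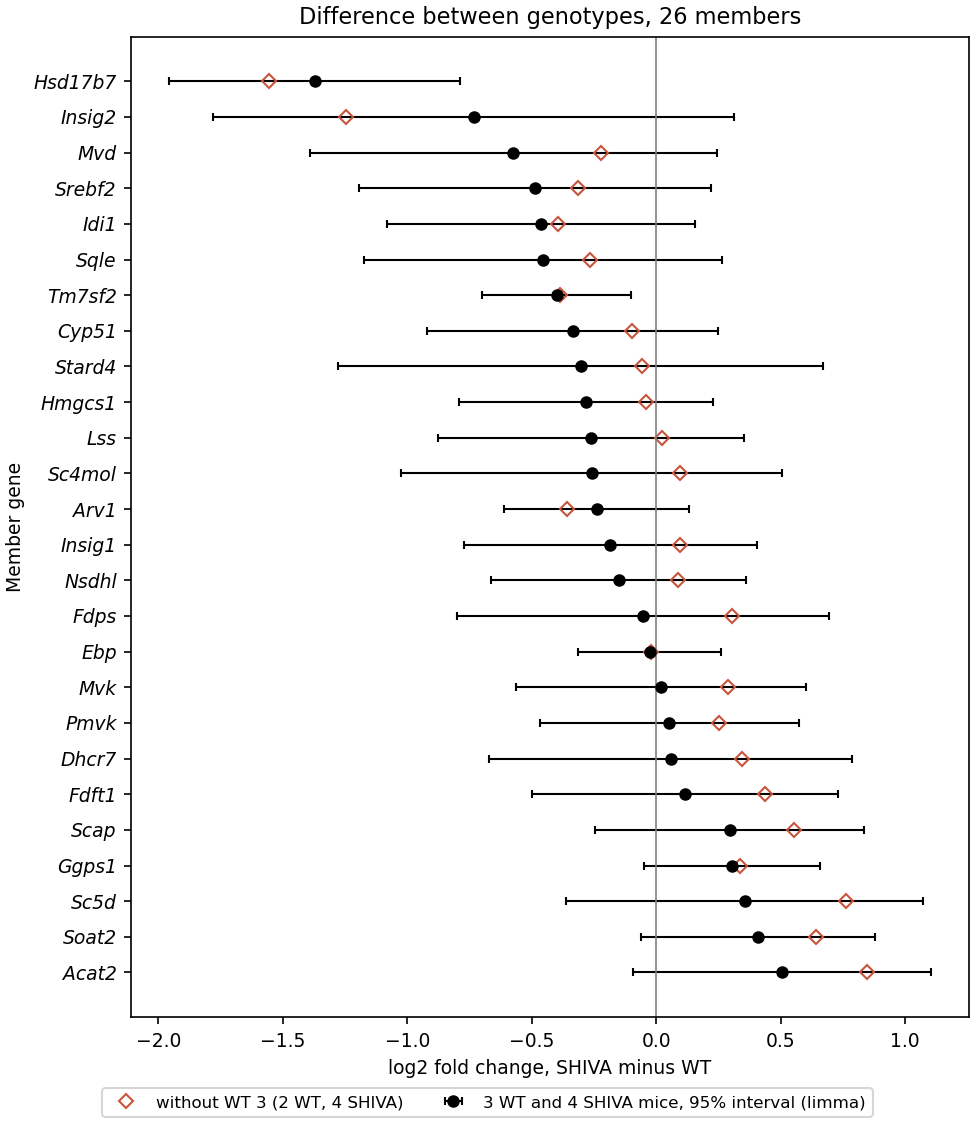
Log2 difference between SHIVA and WT livers for the 26 tested members, ordered by size (filled circles with 95% intervals from limma, 3 WT and 4 SHIVA mice), and the same difference without WT 3 (open diamonds). The intervals of Hsd17b7 and Tm7sf2 alone leave out 0, and leaving out WT 3 moves most members to the right and Insig2, Hsd17b7 and Arv1 to the left.

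The spread between mice of the same genotype was wider for the members than for genes at large. The median SD over members was 0.46 in WT and 0.28 in SHIVA livers, beside 0.25 and 0.23 over all genes tested, and WT had the larger SD for 20 of 26 members (76.9%, beside 55.3% of all genes). WT 3 was the highest WT liver for 19 of 26 members (73.1%), beside 34.8% of all genes tested. SHIVA 3 was the highest SHIVA liver for 17 of 26 (65.4%), beside 22.7%. Both held at once for 15 members (57.7%), beside 10.8% of all genes: Cyp51, Dhcr7, Fdft1, Fdps, Hmgcs1, Insig1, Lss, Mvd, Nsdhl, Pmvk, Sc4mol, Sc5d, Sqle, Srebf2 and Stard4. These 15 genes were picked out by their values, so their number is a description.

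The median over members of WT 3 minus the mean of WT 1 and WT 2 was 0.72, and that of SHIVA 3 minus the mean of the other SHIVA mice was 0.40. Over all genes tested the same medians were -0.0049 and -0.019. Sc5d, Fdps, Sc4mol, Mvd and Acat2 stood more than 2-fold higher in WT 3 than in the other WT mice, from 2.32 times in Sc5d to 2.03 times in Acat2. At the other end were Arv1, Hsd17b7 and Insig2, the 3 members for which WT 3 was the lowest WT liver. With WT 3 left out, 4 members were entirely lower in SHIVA livers (Arv1, Hsd17b7, Insig2 and Tm7sf2) and 6 entirely higher (Acat2, Fdft1, Ggps1, Sc5d, Scap and Soat2). Over all genes tested those shares were 14.3% and 14.6%, while 2.1% passed limma's test, among members Hsd17b7 alone.

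Other lists differed between the same mice, some in WT 3 only. The SREBP1c list held 14 genes of fatty acid synthesis and steps around it. For 8 of them WT 3 was the highest WT liver, and for 8 SHIVA 3 was the highest SHIVA liver. Their median differences from the other mice of their genotype were 0.37 and 0.38. Of the 20 PPARα targets tested, genes of lipid handling that PPARα induces on fasting, WT 3 was the lowest WT liver for 14 and the highest for 0, with a median difference of -0.81 from the other WT mice. SHIVA 3 did not share this, being the highest SHIVA liver for 10 of 20, with a median difference of 0.13. The list means were 12.12, 12.78 and 11.55 in the WT livers and 11.14 to 11.25 in the SHIVA livers.

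Markers of some other cells also stood high in WT 3, and those of others did not. Of 5 blood markers tested, 5 were highest in WT 3 among WT and 5 in SHIVA 3 among SHIVA livers, with list means of 9.82 to 10.28 in WT and 10.31 to 11.09 in SHIVA. Of 7 macrophage and Kupffer cell markers, 7 were highest in WT 3 among WT and 0 in SHIVA 3 among SHIVA livers, with list means of 9.38 to 10.64 in WT and 9.96 to 11.01 in SHIVA. Of 4 bile duct markers tested, 4 were highest in WT 3 and 1 in SHIVA 3, with list means of 5.76 to 7.01 in WT and 5.42 to 6.31 in SHIVA. Of 6 stellate cell markers, 5 were highest in WT 3 and 4 in SHIVA 3, with list means of 6.92 to 7.75 in WT and 7.45 to 7.82 in SHIVA. Of 7 endothelial markers, 5 were highest and 2 lowest in WT 3 among WT, and 0 were highest in SHIVA 3. Of 8 hepatocyte markers, 1 was highest and 2 were lowest in WT 3. Of 3 pancreas acinus markers tested, 2 were highest in WT 3. Of 3 adrenal cortex markers tested, 1 was highest and 2 were lowest in WT 3. The 1 adipose and the 1 intestine marker tested were both lowest there. The part of these lists in the values of the members was not tested.

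**Figure D5:**
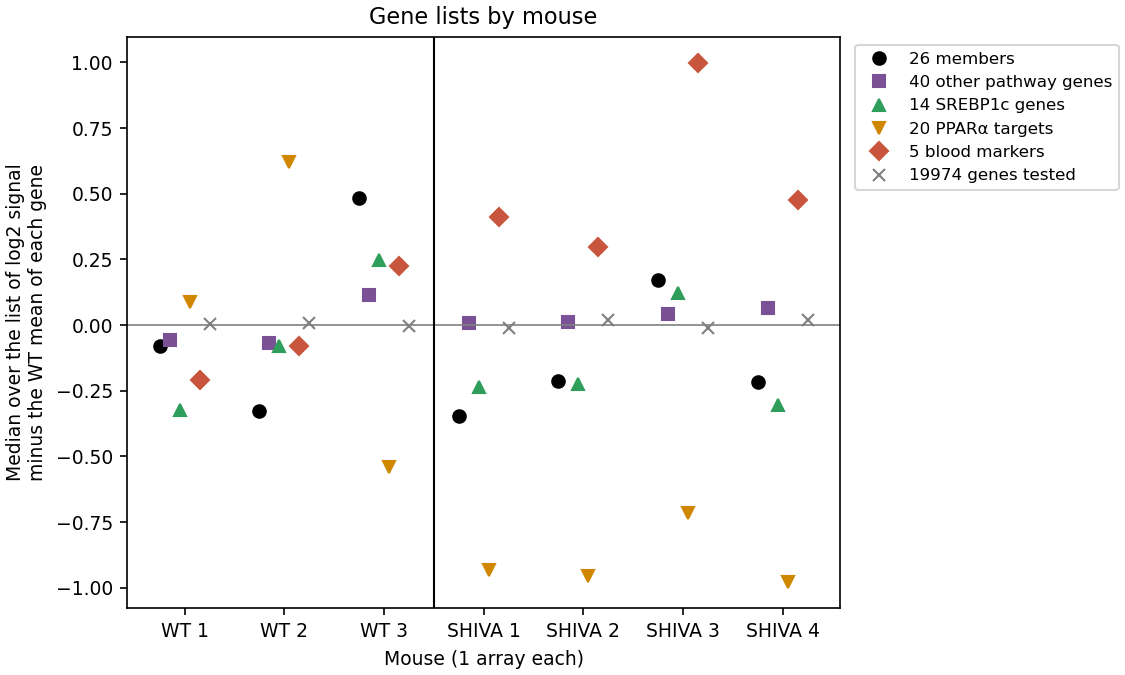
Median over each gene list of the log2 signal minus the WT mean of each gene, per mouse, for the members, other genes of the pathway, SREBP1c lipogenesis genes, PPARα targets, blood markers and all genes tested. The members sit at 0.48 in WT 3 and 0.17 in SHIVA 3 and below 0 in the other 5 mice, while all genes stay near 0.

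Other genes around the pathway were taken as lists: isoprenoid branches, SREBP processing and enzyme turnover, sterol trafficking, and LXR with its targets. Of 40 tested, 0 passed limma's test (4 at an unadjusted p under 0.05, or 10% beside 13.3% of all genes tested), 15 were lower and 25 higher, and the median difference was 0.06. The SHIVA livers were entirely above the WT livers for 4 of 40 (6.14% of all genes tested) and entirely below for 0 (6.02%). Erlin1, part of the complex that degrades sterol-regulated proteins of the endoplasmic reticulum, measured 8.70, 8.42 and 9.14 in WT and 9.71, 9.91, 9.96 and 9.78 in SHIVA livers. Every SHIVA liver was above every WT liver, with a difference of 1.09 (standard error 0.19, adjusted p = 0.063 from limma).

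The 7 genes of SREBP processing and turnover were all higher in SHIVA livers, from 0.05 in Rnf139 to 1.09 in Erlin1, with none past the threshold. The other 3 that separated the genotypes were LXR targets that export sterol: Abcg5 (0.87, standard error 0.24), Abcg1 (0.68, standard error 0.21) and Abca1 (0.55, standard error 0.19), with adjusted p-values from limma of 0.195, 0.233 and 0.278. For these 3 genes the groups lay close together. The highest WT and lowest SHIVA values were 11.91 and 12.04 for Abcg5, 7.45 and 7.57 for Abcg1, and 9.08 and 9.11 for Abca1. Abcg8, the partner of Abcg5, differed by 0.77 with overlap through WT 3 (adjusted p = 0.394 from limma). Of the 8 genes of the LXR list these 4 were higher and the other 4 were lower, down to -0.25. In the isoprenoid list Aacs, which makes acetoacetyl-CoA from ketone bodies, had the largest difference at -0.43 (adjusted p = 0.607 from limma), and in the trafficking list Por, the electron donor of Cyp51 and Sqle, at -0.43 (adjusted p = 0.569 from limma).

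In the neighbouring SREBP1c list, of fatty acid synthesis and steps around it, 9 of 14 genes were lower, beside 51.2% of all genes tested. Of the 14, 1 passed the test, beside 0.375% of all genes tested. It was Me1, the malic enzyme gene that supplies NADPH, with a difference of -1.07 (adjusted p = 0.045 from limma). The SHIVA livers were entirely below the WT livers for 3 of the 14, beside 6.02% of all genes tested. These were Me1, Pklr (-0.80, adjusted p = 0.262 from limma) and Gpam (-0.30, adjusted p = 0.420 from limma). The SHIVA livers were entirely above for 1 of the 14, beside 6.14% of all genes tested. It was Acly, which supplies acetyl-CoA to both pathways, higher by 0.90 (adjusted p = 0.206 from limma). The median difference of this list was -0.14.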

How the data were processed

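Livers of 3 WT and 4 SHIVA mice were measured on 1 Agilent array each. The authors deposited the scanner intensity of every spot (Agilent Feature Extraction 10.5.1.1, per the labels, with probe positions on mm9 per the file headers) and a table of log2 values quantile normalized by the authors, which rank each array's spots as the uncorrected mean signal does. The deposited processed intensity was used here: spots marked as uneven or deviant (120 to 163 per array) were left out, the arrays were quantile normalized, log2 was taken, and spots of a probe were averaged. The probe with the highest mean stood for each gene name of the files. Genes well above background on at least 3 arrays were fitted with limma 3.58.1 in R 4.3.3 (lmFit, eBayes), all 7 mice, no covariate, and Benjamini-Hochberg adjusted over all genes at 0.05. No member had a missing value. Arrays carry no count depth, so signal over background takes its place.

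Members, lists, motifs and the rule for genes named were chosen with earlier results of these data known. Named were members past the threshold, members without overlap, the 10 with the largest difference, and Srebf2, Insig1, Hmgcs1, Sqle and Mvk. In the other lists, genes past the threshold, without overlap or with the largest difference were named. Ebp, Abcg8 and the genes singled out by mouse were named after their values were seen. Alternatives were other scalings, background corrections (normexp, offset 50), filters, probes, array weights, a block for the replicate number, omission of each mouse in turn, and the methods' t-test. The fit was tested on simulated data.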

Additional observations from a re-analysis of the deposited data

Results flagged for a closer look

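Acat2 in SHIVA 2 had a log2 signal of 12.81, while the other 3 SHIVA livers lay between 13.14 and 13.17, a gap large beside their range. The other members were searched in the same way, 26 in all, and 1 was found where chance would give 1.3.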

How the results depend on the processing

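Among the 26 members, 0 passed with 75th percentile scaling, normexp, no filter on dim probes, the mean of all probes, the second probe, the replicate block or the methods' t-test, and 1, Hsd17b7, with the mean signal, the authors' table, the filter on all 7 arrays or array weights, where 1 other pathway gene, Erlin1, also passed. With normexp Erlin1 alone made 1. Over these 11 alternatives Hsd17b7 ran from -1.46 to -1.19, with adjusted p from 0.021 to 0.311. Over the whole array, 75 of 19974 genes were called in the main fit. The count was 141 of 19978 with the mean signal, and also with the authors' table. It was 99 of 17517 with the filter on all 7 arrays and 378 of 19974 with array weights. It was 72 of 19975 with 75th percentile scaling, 71 of 19977 with normexp and 13 of 36413 with no filter. It was 68 of 20007 with the mean of all probes and 64 of 17487 with the second probe. By the methods' t-test 0 were called, and 2299 had an unadjusted p under 0.05, 2 of them members. Members without overlap came to 2 in place of 3, Ggps1 being lost, with the mean signal, normexp, the authors' table, the mean of all probes and the second probe. Leaving out 1 mouse at a time gave 3 to 414 genes (3 without WT 1, 8 without WT 2, 414 without WT 3, 7 without SHIVA 1, 13 without SHIVA 3), 0 to 1 members called, 3 to 10 members without overlap (10 without WT 3, 5 without SHIVA 3), 0 to 1 other pathway genes, and a median over members from -0.36 (without WT 2) to 0.06 (without WT 3), which alone was above 0. With array weights that median was -0.071. Without both mice numbered 3, a setting chosen after seeing the data, 136 genes, 0 members and 1 other pathway gene (Erlin1) passed and 12 members did not overlap. The share of all genes without overlap was taken only with all 7 mice and without WT 3. It was 6.02% lower and 6.14% higher with all 7 mice, and 14.3% and 14.6% without WT 3. The counts of members without overlap in the other settings that left out mice therefore cannot be read as results about the members. The median of the other pathway genes was -0.020 with the mean of all probes. Mvk, at 0.02, changed sign in 7 settings: -0.026 with 75th percentile scaling, -0.0093 with the mean signal, -0.015 with normexp, -0.0064 with the authors' table, -0.089 with the mean of all probes, -0.20 with its second probe and -0.046 with the replicate block; leaving out mice it ran from -0.28 to 0.29, and Insig1 from -0.44 to 0.10. The causes were not tested. Deviations of same-numbered mice correlated at -0.049, 0.012 and 0.236 over all genes. Of 6 mice, 2 were closest to their own number, WT 3 and SHIVA 3. The main fit did not pair the mice by number. With the replicate number as a block (6 mice, SHIVA 4 left out) 66 genes and 0 members passed.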
